A study of Danio rerio with 5 samples.

Results

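Transcripts of pigment cell genes were followed in AB strain zebrafish, as whole larvae 7 days after fertilization, whose embryos had received protons at 24 h. The genes were mitfa, tyr, tyrp1b, dct, pmela and slc24a5 for melanophores, the black pigment cells, and gch2 for xanthophores, the yellow ones. Of these 7 genes, 4 were measured under their own symbol (mitfa, tyr, dct and gch2), by 5 of the 15502 probe sets that were not controls. No probe set carried tyrp1b, pmela or slc24a5 as its single symbol in the annotation used here, and these 3 genes were not analysed.

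On 5 Affymetrix arrays, the study set 1 unirradiated pool (control) beside 1 pool given 12 Gy and 3 given 15 Gy; the gray (Gy) measures absorbed dose. Protons of 8 MeV/u were given at 7.5 Gy/min, and a pool was 20 animals out of 60 in its group. Values at 15 Gy stand below in the order of replicates 1, 2 and 3. All embryos came from several clutches of wild type pairs and grew at 28.5 °C, the medium named for collection is E3, and no pigment inhibitor is named. The sample titles call the 15 Gy arrays biological replicates, but nothing states that their pools were irradiated separately. The p-values therefore cover only the spread among those pools, which may still be technical.

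Pigment cells of the fish skin arise from the neural crest, a migratory population of the early embryo. Mitfa is the transcription factor that specifies the melanophore and switches on the melanin enzymes. Tyrosinase, encoded by tyr, catalyses the first steps from tyrosine to melanin, and dopachrome tautomerase, encoded by dct, acts farther along that path, inside melanosomes. Xanthophores make yellow pteridines, a path that starts from GTP with GTP cyclohydrolase, and gch2 encodes the form used in pigment cells. Melanin is also made in the retinal pigment epithelium of the eye, so melanin genes in whole larvae report on both tissues. In pools of whole larvae, fewer cells of a type and less RNA per cell cannot be told apart.

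Values of the xanthophore gene and of the melanophore genes are given in turn, and the difference between genes was not tested. After 15 Gy the main gch2 probe set was on average 3.38-fold higher than in the control array, although this did not pass the test. Its 95% interval, −0.39 to 3.90 in log2 units, included 0, and the other gch2 probe set was 1.22-fold higher. The means of mitfa, tyr and dct lay within 1.12-fold of the control. However, mitfa and tyr were among the 30% of probe sets with the lowest mean, with no detection call made. The dct interval was wide (−0.90 to 1.16 in log2 units). Single dct arrays at 15 Gy ran from 1.17-fold below the control to 1.41-fold above it. In all 3 melanophore genes the 12 Gy array, a single pool, was the lowest of the 5, as in 15.7% of all probe sets. None of the 5 probe sets passed an adjusted p of 0.05 in any comparison (limma, Benjamini-Hochberg over all probe sets). In the comparison of 15 Gy with control, 0% of all probe sets passed, and at an unadjusted p of 0.05 14.2% were higher and 12% lower. Of the 5 pigment cell probe sets, 1 was higher at that level, the dimmer one of gch2, and 0 were lower. After centring each array on its median, that split of 2195 higher and 1867 lower probe sets became 1890 higher and 2809 lower.

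**Figure D1:**
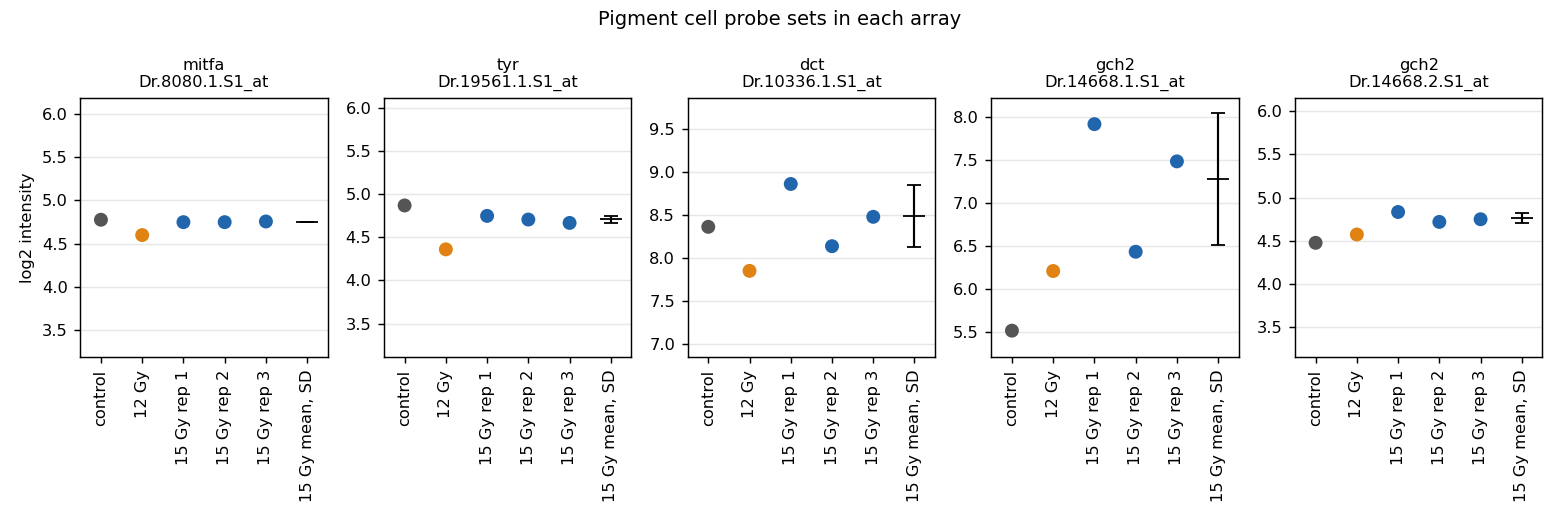
Log2 intensity (vertical axis, each panel spanning the same number of log2 units) of the 5 pigment cell probe sets in the control, 12 Gy and 15 Gy arrays, with the mean and SD of the 3 arrays at 15 Gy at the right. The first gch2 probe set has its lowest point, 5.52, in the control array and its highest, 7.91, in 15 Gy replicate 1, while the mitfa points span 0.18.

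The melanophore regulator mitfa (probe set Dr.8080.1.S1_at) hardly varied. Its intensity was 27.4 without irradiation, 24.2 after 12 Gy and 26.9, 26.9 and 27.0 after 15 Gy. The values of replicates 1 and 2 were identical in the deposited table, a tie that lowers the measured spread. All 3 arrays at 15 Gy lay just below the control, a position that 41.9% of all probe sets shared. The log2 level was 4.75 ± 0.005 at 15 Gy (SD, n = 3) and 4.78 in the control array. The difference was −0.03 (95% confidence interval −0.23 to 0.18; limma adjusted p = 0.833), and it turned positive after another quantile normalization (0.035) and after cyclic loess (0.078).

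Tyrosinase, the enzyme that starts melanin synthesis, was measured by Dr.19561.1.S1_at. The tyr intensity was 29.2 without irradiation, 20.5 after 12 Gy and 26.9, 26.1 and 25.4 after 15 Gy. The control array was the highest, the 12 Gy array the lowest, and the 15 Gy arrays lay close together between them. Against the control, the log2 level at 15 Gy differed by −0.16 (4.71 ± 0.04 at 15 Gy, SD, n = 3, and 4.87 in the control array; interval −0.40 to 0.07; limma adjusted p = 0.259). The probe sets of mitfa and tyr were among the 30% of all probe sets with the lowest mean over the arrays, and no detection call was made for them.

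The downstream enzyme gene dct (Dr.10336.1.S1_at) was the melanin gene with a bright probe set, above 81.6% or more of the probe sets of each array. Its intensity was 329 without irradiation, 231 after 12 Gy and 464, 282 and 357 after 15 Gy. The 15 Gy arrays fell on both sides of the control, and 24.1% of all probe sets likewise had them neither all above nor all below it. They differed among themselves by 1.65-fold, an SD larger than that of 88.8% of probe sets. The log2 difference was 0.13 (8.49 ± 0.36 at 15 Gy, SD, n = 3, and 8.36 in the control array), with an interval of −0.90 to 1.16 and a limma adjusted p of 0.831. This sign rested on replicate 1: without it the difference was −0.054, and after cyclic loess it was −0.0054. For dct the interval therefore leaves room for about a 2.24-fold increase or a 1.87-fold decrease.

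The xanthophore gene gch2 had 2 probe sets. The brighter of them, Dr.14668.1.S1_at, read 45.9 without irradiation, 74.1 after 12 Gy and 241, 86.5 and 179 after 15 Gy. Every irradiated array lay above the control, as in 29.8% of all probe sets (34% for the 15 Gy arrays alone), and replicate 2 lay nearer to the 12 Gy array than to its own group. Against the control, replicates 1, 2 and 3 were 5.25-fold, 1.88-fold and 3.89-fold higher. The log2 level was 7.28 ± 0.76 at 15 Gy (SD, n = 3) and 5.52 in the control array, a difference of 1.76 (SE 0.70, interval −0.39 to 3.90; limma adjusted p = 0.219). A mean difference of at least 2-fold upward was found in 6.86% of all probe sets. The spread of this probe set within 15 Gy was larger than that of 98.1% of probe sets. Without replicate 2 the difference was 2.18, and without replicate 1 it was 1.44.

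The other gch2 probe set, Dr.14668.2.S1_at, was dim and moved far less. It read 22.2 without irradiation, 23.8 after 12 Gy and 28.5, 26.3 and 26.9 after 15 Gy. The 5 arrays had the same order in both gch2 probe sets, from the control upward through 12 Gy and 15 Gy replicates 2, 3 and 1. The order, noticed after the values were seen, was shared by 6.94% of all probe sets. At 15 Gy the dim probe set exceeded the control 1.22-fold (log2 difference 0.29, interval 0.027 to 0.56; limma unadjusted p = 0.039, adjusted p = 0.181). Its SD at 15 Gy was small, and 19.1% of all probe sets had a smaller one. This probe set was also among the 30% with the lowest mean. The mean of both gch2 probe sets differed by 1.02.

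A sign of RNA quality had a similar order. For the GAPDH control probe sets, 5′ signal divided by 3′ signal was 0.174 without irradiation, 0.177 after 12 Gy and 0.242, 0.189 and 0.228 after 15 Gy, which is the order of the gch2 arrays. For the muscle actin control the ratio was 0.0171 without irradiation, 0.0354 after 12 Gy and 0.129, 0.0350 and 0.108 after 15 Gy. Its part in the gch2 values was not tested. The dct values had the order of both ratios among the 15 Gy arrays, highest in replicate 1 and lowest in replicate 2. Over all 5 arrays they did not have the GAPDH order, since the control array lay above 15 Gy replicate 2 and the 12 Gy array below the control. The part of RNA quality in the dct values was likewise not tested.

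The comparison of 12 Gy with control set a single pool against a single pool, and its test assumed that both vary as the 15 Gy pools do. For tyr that spread was small, and 12.5% of all probe sets had a smaller SD at 15 Gy. At 12 Gy, tyr was 1.42-fold lower than in the control (log2 difference −0.51, interval −0.80 to −0.22; limma unadjusted p = 0.0103, adjusted p = 0.219). At an unadjusted p of 0.05, 7.59% of all probe sets were lower at 12 Gy, and 0% passed after adjustment. The tyr probe set was dim. Under the alternatives its difference ran from −0.55 to −0.31, the latter with 16 added to each value. Without that addition dct was lower by the same 1.42-fold, but its interval was wide (−1.77 to 0.75), and mitfa was 1.13-fold lower (interval −0.43 to 0.07). The 12 Gy array was the lowest of the 5 in all 3 melanophore genes, a position it held in 15.7% of all probe sets. The gch2 probe sets went the other way and were above the control by 1.61-fold and 1.07-fold at 12 Gy (intervals of the log2 difference −1.93 to 3.31 and −0.23 to 0.42). None of these differences passed the adjusted test, and none reached 2-fold, which 5.43% of all probe sets did upward and 4.75% downward.

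Between the doses, all 5 pigment cell probe sets were higher at 15 Gy, in each of the 3 arrays, than at 12 Gy. That position was shared by 26.1% of all probe sets. The tyr level was 1.27-fold higher at 15 Gy than at 12 Gy (log2 difference 0.35, interval 0.11 to 0.58; limma unadjusted p = 0.0174, adjusted p = 0.52), where 4.29% of all probe sets were higher at an unadjusted p of 0.05. The dct level was 1.56-fold higher (interval −0.39 to 1.67), mitfa 1.11-fold (interval −0.05 to 0.36), and gch2 2.09-fold and 1.14-fold (intervals −1.08 to 3.21 and −0.07 to 0.46), with adjusted p from 0.622 to 0.727. A difference of at least 2-fold upward was found in 0.761% of all probe sets. For the dim tyr probe set the log2 difference ran from 0.20, with 16 added to each value, to 0.41 under the alternatives. After adjustment 1 probe set passed (0.00645% of all), that of copb2, which is no pigment gene and is named after its value was seen. The 12 Gy array also enters the comparison of 12 Gy with control, so a low value in that pool counts in both.

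**Figure D2:**
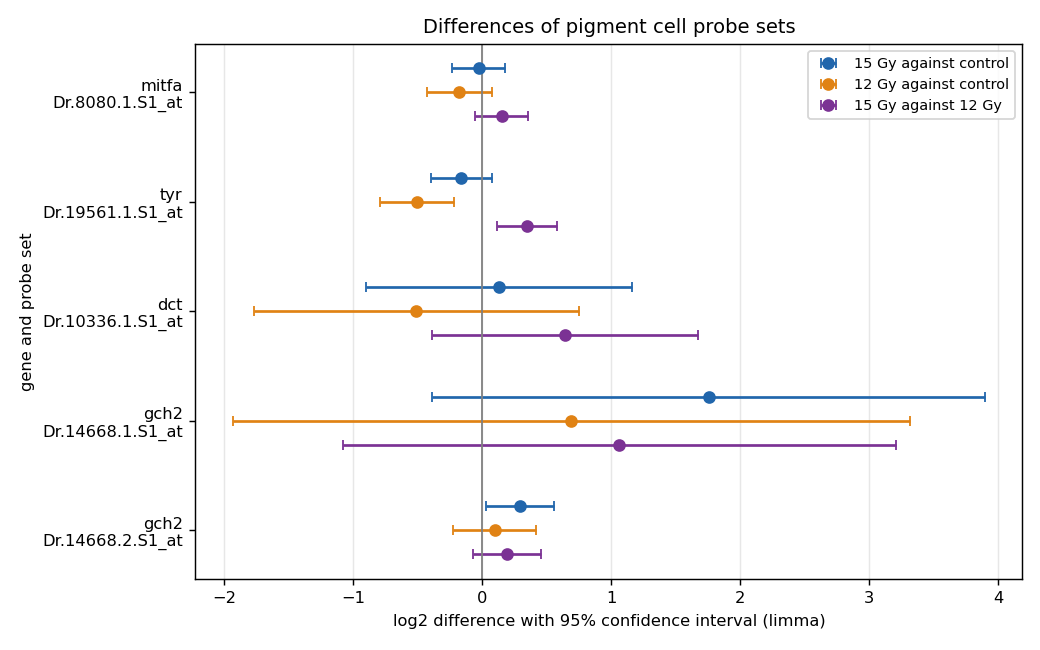
Log2 differences (horizontal axis) of the 5 pigment cell probe sets in the 3 comparisons (blue for 15 Gy minus control, orange for 12 Gy minus control, purple for 15 Gy minus 12 Gy), where points are the limma estimates and bars their 95% confidence intervals. The intervals of tyr at 12 Gy against control (−0.80 to −0.22), of tyr at 15 Gy against 12 Gy (0.11 to 0.58) and of the dim gch2 probe set at 15 Gy against control (0.027 to 0.56) do not cross 0, before any adjustment over probe sets.

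Patterns were compared by the root-mean-square difference of the log2 values, each gene centred on its mean over the 5 arrays, among 8792 other named genes. The genes nearest to gch2 were lrrc20 (0.095), the PDZ-domain protein gene tax1bp3 (0.15), the peroxiredoxin gene prdx1 (0.16), the claudin gene cldnf (0.17) and si:dkey-87o1.2 (0.18). The nearest of them, lrrc20, read 51.1 without irradiation, 91.2 after 12 Gy and 261, 111 and 199 after 15 Gy, a course much like that of gch2. The 5 neighbours, chosen for likeness, all had the array order of gch2, which was also that of the GAPDH ratio. Among the melanophore genes dct came nearest to gch2, at place 1851, ahead of mitfa at 4286 and tyr at 4885. The values were not scaled, so a place also depends on how far a gene ranged over the arrays. Those log2 ranges were 2.39 for gch2, 1.01 for dct, 0.51 for tyr and 0.18 for mitfa. The genes nearest to tyr were cep135 (0.018), tusc2a (0.022), uba3 (0.029), mrpl40 (0.033) and spsb1 (0.034). From tyr, mitfa stood at place 371, dct at 4727 and gch2 at 8495. Neither mitfa nor dct was thus among the 5 genes nearest to tyr over these arrays, and neighbours of mitfa and dct were not ranked.

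**Figure D3:**
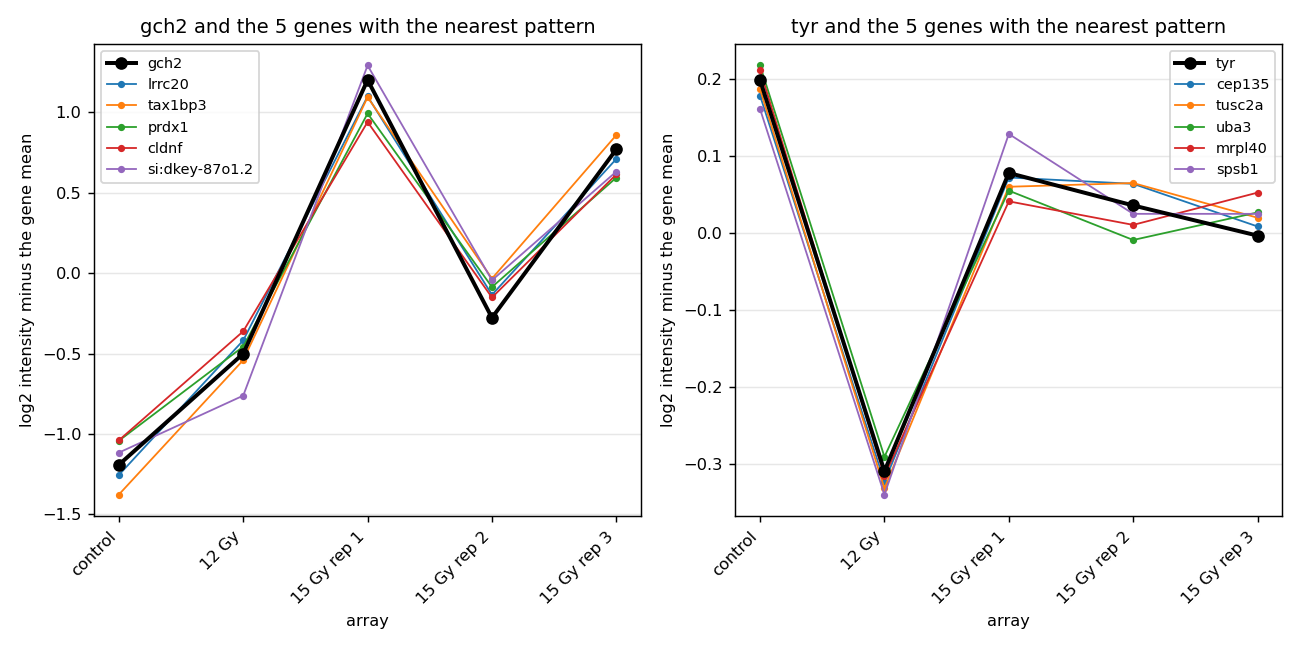
Log2 intensity minus the mean of each gene over the 5 arrays (vertical axis) for gch2 at the left and tyr at the right, in black, with the 5 genes nearest to each in colour. The gch2 group runs from the control upward to 15 Gy replicate 1 with a dip in replicate 2, and the tyr group has its low point in the 12 Gy array; the vertical scales of the panels differ.

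Other genes of melanophores and melanosomes were taken from a list of 29, of which 8 were measured. In all 3 arrays at 15 Gy, 2 of the 8 lay above the control and 5 below, where 41% and 36.5% of all named genes did. Their median log2 difference was −0.15, and that of all 8793 named genes was 0.01. Under the alternatives the list median ran from −0.20 (median centring) to −0.046 (5 genes left without the dimmest 30%). None of the 8 genes passed the adjusted test. At an unadjusted p of 0.05, 1 was higher (rab32a) and 3 were lower (pmelb, mc1r and tfap2a), against 17.4% and 10.4% of all named genes. The melanosome matrix gene pmelb, the paralogue of pmela, read 60.2, 49.4 and 60.8 at 15 Gy and 101 in the control array, with 56.5 at 12 Gy. Each irradiated array was thus well below the control, 1.78-fold on average at 15 Gy (limma adjusted p = 0.167). The transcription factor gene tfap2a, which acts in neural crest and pigment cell development and also in epidermis, was 1.99-fold lower at 15 Gy (log2 difference −0.99, limma adjusted p = 0.179). Higher by 1.61-fold was rab32a (limma adjusted p = 0.17), which encodes a small GTPase of melanosome transport. The receptor tyrosine kinase gene kita, needed for melanophore migration and survival, was dim and read 20.3, 18.3 and 16.9 at 15 Gy and 16.04 in the control array. The melanocortin receptor gene mc1r, also dim, was 1.31-fold lower (limma adjusted p = 0.169).

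The pteridine and xanthophore list had 9 of 19 genes measured, with a median difference of 0.00. In all 3 arrays at 15 Gy, 3 lay above the control and 3 below, where 41% and 36.5% of all named genes did. At an unadjusted p of 0.05, 2 of the 9 were higher and 0 lower, near the 17.4% and 10.4% of all named genes, and 0 passed after adjustment (limma). The 2 were pcbd1, which encodes an enzyme that recycles the pterin cofactor made from GTP, and the transporter gene slc2a11b. The pcbd1 probe set read 304, 224 and 263 at 15 Gy and 151 in the control array, with 193 at 12 Gy, so that the arrays had the same order as for gch2. This order was also that of the GAPDH ratio and of 6.94% of all probe sets. The log2 difference of pcbd1 at 15 Gy was 0.80 (limma adjusted p = 0.174), and that of slc2a11b was 0.51 (limma adjusted p = 0.167). The transcription factor gene pax7a, which acts in xanthophore specification, lay on the other side, with 36.5, 50.7 and 36.6 at 15 Gy and 55.6 in the control array. All 4 probe sets of pax7a had negative log2 differences, from −0.45 to −0.17. The carotenoid-cleaving enzyme gene bco1 differed by −0.48 on the log2 scale (limma adjusted p = 0.204). The receptor gene csf1ra, used by xanthophores and by macrophages, was dim and read 23.5 in every array. Its values in the control array and in all 3 arrays at 15 Gy were exactly tied. Such a tie does not show that its level was unchanged, and the list median of 0.00 is the value of this gene. The list median shifted to 0.095 with 7 genes left without the dimmest 30%, to 0.069 after cyclic loess and to −0.052 after median centring. It thus had no stable direction.

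Purine synthesis supplies GTP to the pteridine path and guanine to iridophores, the reflective pigment cells. Of 22 genes in this list 9 were measured, with a median log2 difference of 0.44. In all 3 arrays at 15 Gy, 5 lay above the control and 1 below, where 41% and 36.5% of all named genes did. The median was positive under each alternative, from 0.36 to 0.53. Those above were atic, adsl, prps1a, paics and ppat, which encode enzymes of purine synthesis in all cells. The atic probe set read 247, 185 and 198 at 15 Gy, 126 at 12 Gy and 110 in the control array. At 15 Gy atic was 1.89-fold higher than the control (limma adjusted p = 0.168), and adsl was 1.62-fold higher (limma adjusted p = 0.352). For atic and ppat the arrays had the same order as for gch2. Among the 15 Gy arrays adsl and paics had it too, but not over all 5, and prps1a did not. This order was also that of the GAPDH ratio and of 6.94% of all probe sets. The part of RNA quality in these values was not tested. Below the control was mpv17, a mitochondrial gene needed by iridophores (log2 difference −0.24, limma adjusted p = 0.215). The other mpv17 probe sets differed by −0.12 to −0.06. The iridophore markers pnp4a and ltk carried no probe set of their own in the annotation used, so the list described purine enzymes more than iridophores.

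Among neural crest and progenitor genes 10 of 13 were measured. In all 3 arrays at 15 Gy, 4 lay above the control and 3 below, where 41% and 36.5% of all named genes did. The median log2 difference was 0.04. This median had no stable sign, being −0.010 after median centring, −0.0099 without 15 Gy replicate 1 and −0.013 with the irradiated arrays as 1 group. The largest difference was in snai2, which encodes a zinc-finger regulator of migrating crest cells. It read 183, 134 and 160 at 15 Gy and 42.0 in the control array, with 145 at 12 Gy, so all irradiated arrays stood apart from the control (3.76-fold at 15 Gy, limma adjusted p = 0.167). The other snai2 probe sets were very dim and differed by 0.12 and 0.41 on the log2 scale. The crest transcript crestin was 1.53-fold higher at 15 Gy (limma adjusted p = 0.167), with 113, 103 and 112 at 15 Gy, 75.9 at 12 Gy and 71.3 in the control array. For crestin the arrays had the same order as for gch2, which was also that of the GAPDH ratio and of 6.94% of all probe sets. By contrast sox10, which acts upstream of mitfa, read 165, 152 and 152 at 15 Gy and 148 in the control array (log2 difference 0.08, limma adjusted p = 0.623). Below the control were zic2a (2.15-fold) and id2a (1.44-fold), both also expressed in the brain (limma adjusted p = 0.179 and 0.194). The other zic2a probe set, which was much dimmer, differed by −0.20 on the log2 scale.

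**Figure D4:**
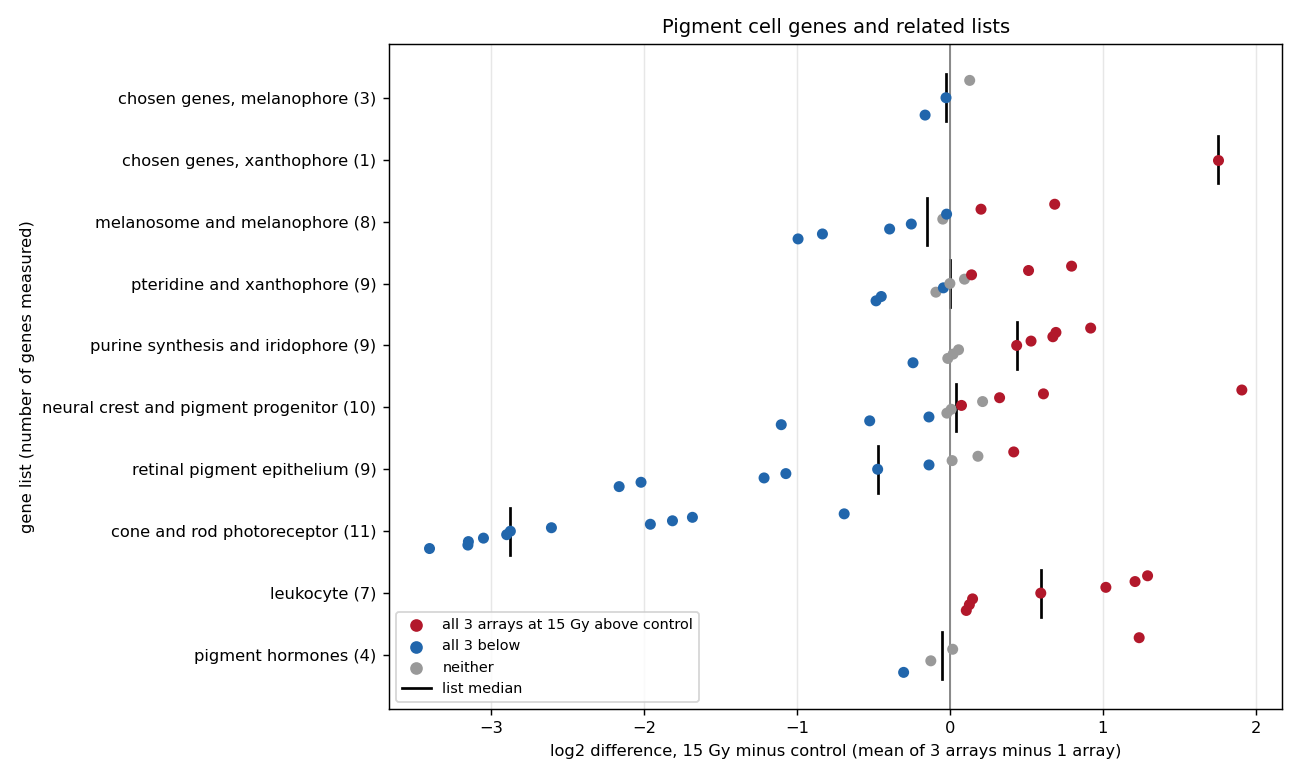
Log2 difference between 15 Gy and control (horizontal axis, mean of 3 arrays minus 1 array) for each gene of the chosen pigment cell genes and of the related lists, one row per list, with the number of genes measured in parentheses. Red points have all 3 arrays at 15 Gy above the control, blue points all 3 below, grey points neither, and a black line marks the list median; gch2 stands at 1.76, and the photoreceptor genes lie between −3.40 and −0.69.

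Of 8 genes in the pigment hormone list, which also held a receptor gene, mc2r, 4 were measured. In all 3 arrays at 15 Gy, 1 lay above the control and 1 below, where 41% and 36.5% of all named genes did. The other 2, pmchl and asip2b, lay on both sides of it (log2 differences −0.12 and 0.02). The precursor gene of melanocyte-stimulating hormone, pomca, read 54.4, 37.2 and 45.3 at 15 Gy and 19.1 in the control array, with 34.5 at 12 Gy. At 15 Gy it exceeded the control 2.36-fold (limma adjusted p = 0.167), in the same array order as gch2. The GAPDH ratio and 6.94% of all probe sets shared that order. The receptor gene mc2r, which responds to corticotropin from the same precursor, was dim and 1.23-fold lower (limma adjusted p = 0.235). It read 21.0, 21.9 and 18.6 at 15 Gy and 25.2 in the control array. The list median, −0.05, had no stable sign (0.04 after cyclic loess and 0.029 without 15 Gy replicate 1). Without the dimmest 30%, 2 genes were left and the median was 0.56.

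Markers of other cells moved in the same arrays. Of 20 genes listed for the retinal pigment epithelium 9 were measured, with a median log2 difference of −0.47 at 15 Gy. In all 3 arrays at 15 Gy, 6 were below the control and 1 above, where 36.5% and 41% of all named genes were. The other 2, stra6 and bhlhe41, lay on both sides of it (log2 differences 0.18 and 0.01). The summed intensity of this list was 2224 to 2399 at 15 Gy, 3363 at 12 Gy and 3421 in the control array. In that sum bhlhe40 read 729 to 973 at 15 Gy, 1595 at 12 Gy and 611 in the control array. The list median at 12 Gy against control was −0.63. The retinal-binding protein gene rlbp1a read 60.5, 135 and 128 at 15 Gy and 412 in the control array, which is 4.06-fold lower on average (limma adjusted p = 0.18). The retinoid isomerase gene rpe65a, named after its value was seen, was 2.10-fold lower by its brighter probe set (limma adjusted p = 0.168), whereas its other probe set differed by 0.21. The photoreceptor regulator gene crx, also in this list, was 4.48-fold lower (log2 difference −2.16, −1.45 without 15 Gy replicate 1; limma adjusted p = 0.296), and bhlhe40, a gene also of the circadian clock, was 1.34-fold higher (limma adjusted p = 0.282).

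The photoreceptor list had 11 of 18 genes measured, with a median of −2.87. All 11 were lower than the control in each 15 Gy array, as were 36.5% of all named genes. The summed intensity of this list was 797 to 12174 at 15 Gy, 3518 at 12 Gy and 35140 in the control array. At 12 Gy, a single pool, the list median against control was −2.62. The opsin gene opn1sw2 was 10.6-fold lower (limma adjusted p = 0.341) and the cone gene pde6c 8.89-fold lower (limma adjusted p = 0.3). The size of these differences depended on single arrays. Without 15 Gy replicate 1 the list median was −1.71, and the log2 difference was −2.13 for opn1sw2 (−3.40 with all arrays) and −2.10 for pde6c (−3.15 with all arrays). Without replicate 2 these values were −3.41, −4.24 and −3.82. In 15 Gy replicate 1, where the photoreceptor sum was lowest, dct had its highest value, as did both gch2 probe sets and both RNA quality ratios. Of 8 leukocyte genes 7 were measured, with a median of 0.59. By their brightest probe sets all 7 were above the control in each array at 15 Gy, as were 41% of all named genes. Other probe sets differed by −0.20 to 1.58 for mpx and by 0.0 for spi1b on the log2 scale. The summed intensities of the brightest probe sets were 495 to 628 at 15 Gy and 321 in the control array. Among these genes coro1a was 2.45-fold higher (limma adjusted p = 0.171) and lcp1 2.31-fold higher (limma adjusted p = 0.167). For coro1a, but not for lcp1, the arrays had the order of gch2 and of the GAPDH ratio, shared by 6.94% of all probe sets. The other coro1a probe set differed by 0.64 on the log2 scale. The part of eye cells and leukocytes in the pigment gene values was not tested.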

How the data were processed

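RNA of pooled whole larvae was hybridised to Affymetrix zebrafish arrays as biotin-labelled cRNA from 6 µg of total RNA, per the labels' protocols. The deposited table gives each probe set's intensity in each array, not in log units (3.99 to 24171). The submitters' processing notes name RMA, with neither software nor version. No detection calls were used. The medians of log2 intensity ran from 5.95 to 6.03. The number of arrays limits the precision. Ties to 8 decimals between arrays occurred in 3879 probe sets.

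Values were turned to log2, 115 control probe sets were left out, and 15502 were tested with limma 3.58.1 (R 4.3.3) in a model of all 5 arrays with a mean per group. Only the 15 Gy arrays gave residual degrees of freedom (2), to which the prior contributed 1.20. Intervals are at 95%, unadjusted over probe sets. Tests were two-sided, with Benjamini-Hochberg adjustment and a threshold of 0.05, and the steps were tested on simulated data. Symbols came from the platform table, updated through identifiers to RefSeq (GRCz12tu, names only; 10711 of 10795 single symbols matched, 1 changed). For a gene with several probe sets the one of highest mean was used, except that every probe set of the chosen genes is given.

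The genes and the 8 lists (137 entries) were chosen with earlier results of these data known. Named were all chosen genes and, per list, up to 2 genes with the largest differences each way among those with all 15 Gy arrays on one side of the control, plus csf1ra, kita and sox10 whatever their values (tyrp1a, slc45a2 and oca2, also in that rule, were not measured here), and the 5 genes nearest to tyr and to gch2. Others are named where a count of 5 or fewer covers them. Figures used matplotlib 3.10.9. No sequences were used here. Alternatives covered normalization, a filter on dim probe sets, an added constant, the variance model, left-out replicates and grouping.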

Additional observations from a re-analysis of the deposited data

How the results depend on the processing

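No paired analysis was possible because the groups share only replicate number 1. Over 139 differences of the chosen probe sets under 12 alternatives, 0 passed an adjusted p of 0.05 (smallest 0.151), and 5 changed sign, all at 15 Gy against control: mitfa after another quantile normalization (0.035) and cyclic loess (0.078), and dct after cyclic loess (−0.0054), without 15 Gy replicate 1 (−0.054; over the replicates left out −0.054 to 0.31) and with the 4 irradiated arrays as 1 group (−0.030). The cause was not tested. The gch2 difference stayed positive in each, from 1.02 (mean of both probe sets) to 2.18 (without replicate 2). Of the probe sets of all genes, 6 passed at 15 Gy against control with the irradiated arrays as 1 group, in place of 0. At 12 Gy against control 4 passed after another quantile normalization, 2 after cyclic loess and 1 each after median centring, with an intensity trend and with 16 added to each value, in place of 0. At 15 Gy against 12 Gy, 0 passed without the dimmest 30% and 0 to 0 when leaving out a replicate, in place of 1. Without replicate 3, the counts at an unadjusted p of 0.05 became 1122 (from 4062), 1180 (from 2644) and 568 (from 1383), and the last became 873 without the dimmest 30%, where fewer probe sets are tested. The dim filter removed mitfa, tyr and the dim gch2 probe set, so these have no value there. No setting can replace the single control and 12 Gy arrays.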
